A study of Mus musculus with 25 samples.

Results

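The comparison set 5 cortex libraries from mice given a combination of (-)-Vestitol and Salviolone against 5 from mice given (-)-Vestitol alone, 10 of the 25 libraries of the study. Members were chosen by the treatment in the sample labels. All 10 mice were 6-month-old males of strain B6C3 that carried APPswe and PSEN1dE9, the mutant transgenes of a widely used model of brain amyloid, which are driven by a mouse prion protein promoter. The combination mice received 2.5 mg/kg of (-)-Vestitol with 2.5 mg/kg of Salviolone, and the vestitol mice received 5 mg/kg of (-)-Vestitol. Both groups were injected into the peritoneum each day for 3 months, so the total dose was 5 mg/kg in both, while the vestitol dose as well as the salviolone dose differed. The other groups, used as reference levels, were 5 vehicle-treated mice of the same genotype (model control), 5 mice of that genotype on 5 mg/kg of Salviolone, and 5 vehicle-treated C57BL/6J mice without the transgenes (wild type), all male and of the same age. The labels number the libraries of a group n1 to n5, read here as separate mice, so p-values measure the spread between these libraries, and a number only names a mouse.

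(-)-Vestitol is an isoflavan made by legumes and found in propolis, and salviolone is a diterpenoid of sage roots. In this model the transgenes raise the output of amyloid beta peptide from neurons, plaques form in cortex and hippocampus, and microglia and astrocytes gather around them. A piece of cortex holds excitatory neurons, several classes of inhibitory interneuron, glia and vessels, and its RNA is a mixture weighted by how many cells of each type it contains. Neuropeptides such as orexin, melanin-concentrating hormone, vasopressin and oxytocin are made in the hypothalamus, below the cortex, and not by cortical excitatory neurons. In bulk RNA, fewer cells of a type and less RNA per cell cannot be told apart.

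Total counts ran from 71606813 to 109776852 in the combination libraries and from 65336993 to 78331946 in the vestitol libraries. Levels are given as CPM, read counts scaled to depth and library composition, and 3 counts, taken as the floor of detection, correspond to less than 0.05 CPM in every one of these libraries. Of 21720 genes in the table, 16515 passed a filter on low counts and were tested. The transgenes were seen through App and Prnp, whose reads include those of the transgenes and their prion sequences. App averaged 4071 ± 311 CPM (SD, n = 5) in vestitol and 3758 ± 264 CPM (SD, n = 5) in combination mice, against 1672 ± 165 CPM (SD, n = 5) in wild type. Its log2 fold change between the treated groups was −0.12 ± 0.07 (SE), with an edgeR adjusted p of 0.291, and that of Prnp was −0.11 ± 0.07 (adjusted p = 0.27), so neither passed the threshold of 0.05. With the library set described below as a term, App was lower in the combination and passed (−0.33, adjusted p = 0.0301), and Prnp was −0.26 (adjusted p = 0.0825).

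The tissue label was checked against region markers before any gene was compared. The level of a marker list is its mean log2 CPM over members, called its score. For 16 genes of the hypothalamus and basal forebrain the score in combination mice 1 to 5 was 1.61, 3.06, 2.61, 3.65 and 3.57, and in vestitol mice 1 to 5 it was −1.04, −0.08, −0.28, 0.01 and −0.37. Every combination mouse was above every vestitol mouse. The score was also high in wild-type mice 1, 3, 4 and 5 (1.07, 2.67, 2.20 and 2.65) and in model control mouse 1 (1.34), and it was at or below 0.43 in the remaining 10 libraries. Summed over the list, these genes reached 503.6 to 875 CPM in combination and 123.5 to 200.6 CPM in vestitol mice. In the opposite direction, the score of 15 cortical excitatory neuron markers was 6.34, 6.41, 6.45, 6.17 and 6.20 in the combination mice and 6.89, 6.85, 6.86, 6.77 and 6.77 in the vestitol mice, again without overlap. Cortical markers such as Tbr1 and Lamp5 were thus detected in all 10 libraries, at lower levels in the combination libraries. The combination libraries also carried more transcripts of regions below the cortex. No level that would define a library as cortex was set.

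**Figure D1:**
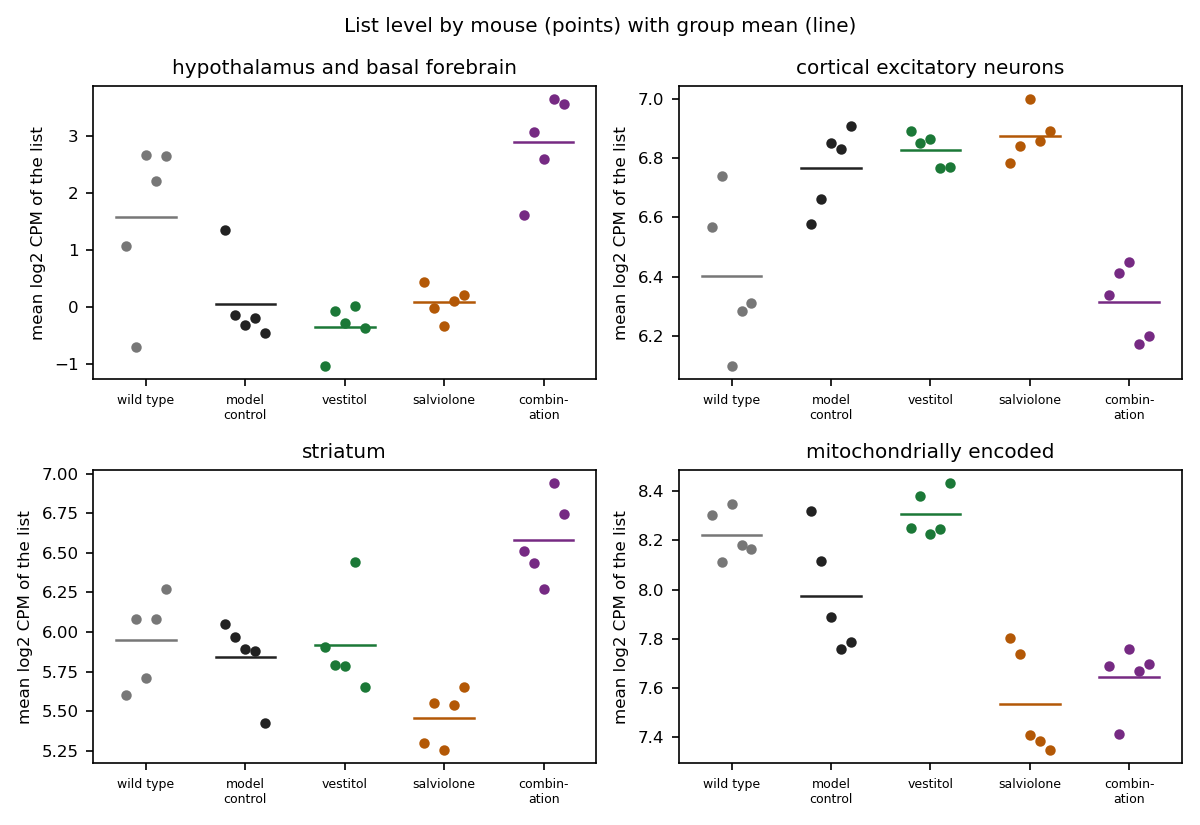
Mean log2 CPM of 4 gene lists (vertical axes) for each mouse, by group, with the group mean as a line. The hypothalamus and basal forebrain score lies between 1.61 and 3.65 in combination mice and at or below 0.01 in vestitol mice, and the mitochondrially encoded score lies between 7.41 and 7.76 against 8.22 to 8.43.

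A second split of the libraries was found in transcripts of gut epithelium, which are not markers of brain tissue. Lypd8, Dmbt1 and Muc3, genes of intestinal lining and mucus, were picked after seeing the data. Their fitted decreases were among the largest of this same comparison. That the treated groups fall on different sides of the split therefore follows from the choice and is no separate finding. The summed level of these 3 genes was 7.31 to 26.7 CPM in 14 libraries and 0 to 0.231 CPM in the other 11. The 14 comprised all 5 vestitol and all 5 wild-type libraries, model control mice 1 to 3 and salviolone mouse 1. The 11 comprised all 5 combination libraries, model control mice 4 and 5 and salviolone mice 2 to 5. The labels name no batch, so these are called here the libraries with and without intestinal transcripts, or the library sets. Since each treated group lies wholly in 1 set, no value within a set can be had for this comparison, and treatment and library set cannot be told apart from these 10 libraries alone. Beside each result, the value is therefore given from a fit over all 25 libraries with the library set as a term, which rests on the groups that hold libraries of both sets, and from one with the hypothalamus score as a covariate.

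At an adjusted p under 0.05, 3609 of 16515 genes differed between combination and vestitol mice, 21.9% of those tested, 1860 (11.3%) higher and 1749 (10.6%) lower in the combination. Changes were small for most: the median size among called genes was 0.40 on the log2 scale, 1166 genes passed 1.5-fold and 544 passed 2-fold. The log2 fold change over all genes tested had a median of 0.0027. The 5 mice of one group did not overlap with the 5 of the other in 2985 of the 16515 genes (18.1%), of which 2562 were called. With the library set as a term, 880 genes were higher (5.33%) and 730 lower (4.42%), 9.75% of those tested together, and 99.42% of the 3609 genes kept their sign. With the hypothalamus score as a covariate, 13 genes passed (0.0787%), 2 higher (0.0121%) and 11 lower (0.0666%), while 1507 had an unadjusted p under 0.05. In that fit the median size of the 3609 changes went from 0.40 to 0.21 with 91.3% of signs kept, and the median SE rose from 0.10 to 0.16. With both terms together 0 genes passed in edgeR's quasi-likelihood test, with 931 at an unadjusted p under 0.05. Of the 53 gene lists used below, 50 held at least 1 called member, and with the hypothalamus score 3 did: 8 mitochondrially encoded genes, 1 nuclear gene of oxidative phosphorylation and 1 E3 ubiquitin ligase. Every other call on a list member given below was lost in that fit. The score did not overlap between the treated groups, so treatment and score cannot be told apart from their libraries alone. A lost call therefore does not show where a difference came from. Members of the hypothalamus list make up the score, so the loss of their calls follows from the fit. The count of each list is to be read against the 11.3% of all genes raised and 10.6% lowered. A count with the library set is to be read against the 5.33% raised and 4.42% lowered in that fit.

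The list that stood farthest from the median of all genes was that of the hypothalamus and basal forebrain, for which 14 of 16 members rose, none fell, and the median log2 fold change was 3.00. That median is the same with Ghrh, which had 0 counts in the vestitol group, set at its lower bound of at least 22.4-fold higher, taking 3 counts over the vestitol group as the floor. Hcrt, the precursor of orexin, measured 0, 0.0533, 0, 0.0654 and 0.0392 CPM in vestitol mice 1 to 5 and 0, 0.925, 3.48, 21.0 and 27.6 CPM in combination mice 1 to 5. Pmch, the precursor of melanin-concentrating hormone, measured 0, 0.213, 0.0766, 0.0654 and 0.0522 CPM in vestitol and 0.101, 4.47, 11.6, 21.8 and 27.8 CPM in combination mice. Avp, the precursor of vasopressin, measured 0, 0.919, 0.230, 0.0523 and 0.131 CPM in vestitol and 1.79, 21.8, 5.39, 17.8 and 37.9 CPM in combination mice. Combination mouse 1 had the lowest value of its group for all 3, and for Hcrt and Pmch it fell within the range of the vestitol mice, while mice 4 and 5 were high. These were the genes with the largest fitted increases among those of at least 1 on the mean log2 CPM scale, and all 3 were called (adjusted p = 0.00488, 0.00303 and 0.00456), although their level spans more than an order of magnitude among the combination mice and limma-voom called none of them.

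Among other members of the list, Hap1, Zcchc12 and Baiap3 were more even among the combination mice. Hap1, huntingtin-associated protein 1, measured 42.0, 45.2, 38.3, 60.3 and 41.6 CPM in vestitol and 209, 213, 171, 231 and 199.6 CPM in combination mice, a log2 fold change of 2.17 ± 0.30 (SE, adjusted p = 7.05e-05). Zcchc12, a transcriptional coactivator of the hypothalamus and septum, rose by 2.24 ± 0.33, and Baiap3, which acts in dense-core vesicle release, rose by 3.68 ± 0.60 on the same scale. The transcription factor Sim1, which specifies the paraventricular nucleus, had 4 counts in all 5 vestitol libraries together and 714 in the combination libraries. Pomc and Agrp, peptides of the arcuate nucleus, were the 2 members that did not pass: Pomc was 3.49 CPM in combination mouse 2 and at most 0.561 CPM in the other 4. Peg10 was less even, at 40.0 to 132 CPM in combination mice and up to 45.0 CPM in vestitol mice, so the groups overlapped. Sim1, Pomc, Agrp and Peg10 were singled out after their values were seen. Hap1 was high as well in the wild-type mice (187, 53.8, 234, 253 and 182 CPM), except mouse 2, and in model control mouse 1 (119 CPM). Of the 16, 9 were raised with the library set as a term.

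Markers of other regions below the cortex moved too, by less. Of 14 striatal genes 10 rose and none fell, with a median log2 fold change of 0.58, and the score was 6.51, 6.44, 6.27, 6.94 and 6.74 in combination against 5.91, 5.79, 5.79, 6.44 and 5.65 in vestitol mice, so that vestitol mouse 4 reached the range of the combination group. Penk, the enkephalin precursor of striatal projection neurons, measured 199, 190, 171, 304 and 172 CPM in vestitol and 420, 361, 315, 492 and 439 CPM in combination mice, 0.97 ± 0.19 on the log2 scale (adjusted p = 0.000751). Adora2a, an adenosine receptor of the same neurons, rose by 0.85 ± 0.16, and Adcy5, their main adenylyl cyclase, by 0.55 ± 0.11. The raised count was 6 without vestitol mouse 1, vestitol mouse 3 or combination mouse 5, it was 4 with the library set as a term (median 0.62), and with the hypothalamus score the median was 0.37 with none called. In wild-type mice, where the hypothalamus score was high in 4 of 5, the striatal score was 5.60 to 6.27, the upper end being the level of the lowest combination mouse.

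Thalamic markers held 4 raised of 14, with a median of 0.74, and that count was 1 with vestitol mouse 3 left out, and 2 with vestitol mouse 4 or 5 or combination mouse 2 or 5 left out, while 1 member fell without combination mouse 3. The thalamic median was 1.44 with the library set, where 3 were raised, and −0.22 with the hypothalamus score, where none was. Among them, Calb2, encoding calretinin, measured 6.55, 6.26, 5.35, 7.82 and 5.75 CPM in vestitol and 34.6, 36.7, 33.6, 57.1 and 49.4 CPM in combination mice and is also made by cortical interneurons. Choroid plexus genes had 2 of 15 raised (13.3%, against 11.3% of all genes) and a median of 1.198, which was 0.76 without combination mouse 1. The 2 were Prlr, the prolactin receptor, at 2.27 ± 0.43 and Clic6, a chloride channel protein, at 1.78 ± 0.36. The mean choroid plexus score was −1.28 in vestitol and −0.38 in combination mice. It was 0.26 in model control, −0.42 in salviolone and −0.60 in wild-type mice, so the vestitol group had the lowest mean. Meningeal genes had 5 of 14 raised and a median of 0.85, led by Aldh1a2, which makes retinoic acid (1.42 ± 0.31), Slc6a13, a GABA transporter (1.15 ± 0.26) and the collagen gene Col1a1 (0.86 ± 0.21). The mean meningeal score was 1.11 in vestitol and 1.86 in combination mice. It was 1.76 in model control, 2.03 in salviolone and 2.32 in wild-type mice, so vestitol was again lowest. None of the 14 meningeal genes passed with the library set as a term, and their median was −0.06, whereas the choroid plexus pair stayed called. With the hypothalamus score neither of the pair passed, Prlr being 0.53 and Clic6 1.03, and the meningeal median was 1.03 with none called. Ependymal genes had a negative median, −0.48, with 2 of 13 lowered (15.4%) and 1 raised (7.69%). Their score was 0.53 to 1.01 in combination and 1.06 to 1.36 in vestitol mice. The lowered count was 0 or 1 whichever mouse was left out. The ependymal median was −0.78 with the library set, where 1 was raised and none lowered, and −0.61 with the hypothalamus score, where none was called.

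Cortical excitatory neuron markers went the other way, with 11 of 15 lowered, none raised and a median log2 fold change of −0.53. One member was raised without vestitol mouse 4 or combination mouse 3. Lamp5, a membrane protein of superficial layers, measured 298, 288, 306, 283 and 348 CPM in vestitol mice and 143, 171, 154, 139 and 137 CPM in combination mice, −1.03 ± 0.18 on the log2 scale (adjusted p = 0.000278). Tbr1, a transcription factor of deep-layer neurons, measured 142, 143, 137, 125 and 142 CPM and 86.7, 96.1, 97.6, 72.1 and 76.4 CPM in the same order (−0.68 ± 0.11). Emx1, which marks the cortical neuron lineage, fell (−0.79 ± 0.15), and Neurod6, Fezf2, Neurod2, Cux1, Cux2, Rorb and Nrgn were among the rest. The combination and vestitol groups were apart for Lamp5, Tbr1 and Emx1. The wild-type mean was lower than that of model control (159 against 313 CPM for Lamp5), but mice of these 2 groups overlapped in all 3 genes. For Lamp5, wild-type mouse 2 was at 269.5 CPM and model control mouse 1 at 237.4 CPM. The median of the list was −0.71 with the library set as a term, where 10 members passed, and −0.0042 with the hypothalamus score, where none did.

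**Figure D2:**
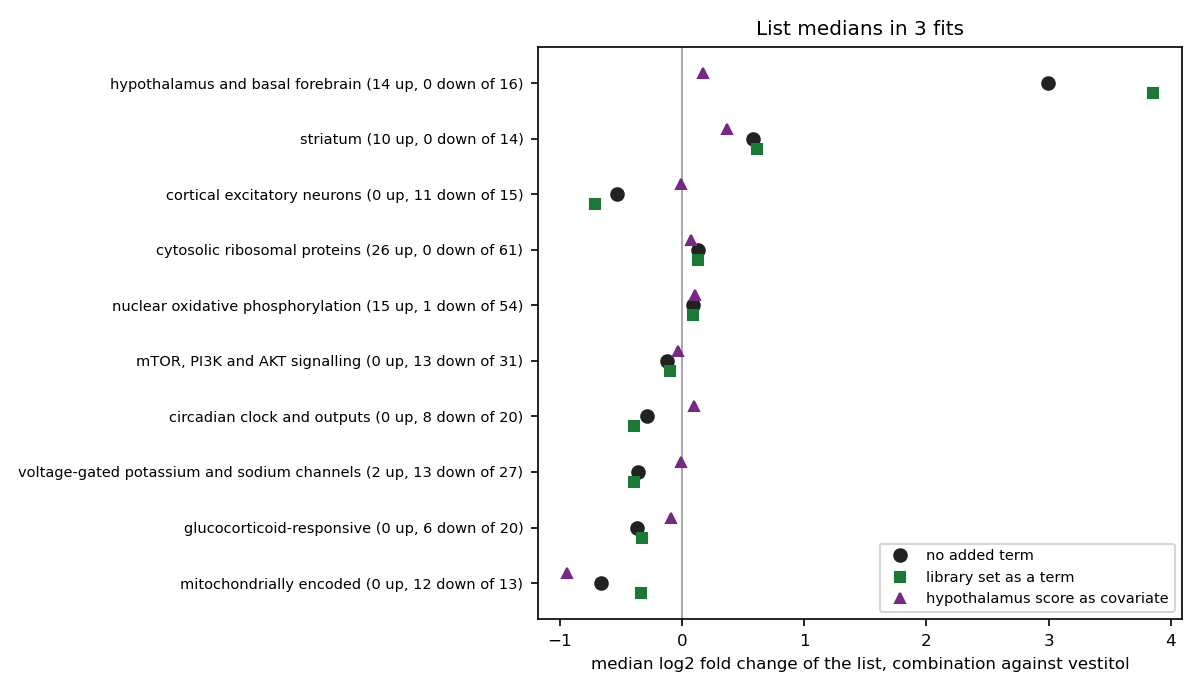
Median log2 fold change, combination against vestitol, of 10 gene lists (rows, with the number of members called higher and lower) in the fit with no added term, with the library set as a term and with the hypothalamus score as a covariate. The cortical neuron median goes from −0.53 to −0.0042 with the score, while that of the mitochondrially encoded genes goes from −0.67 to −0.94 with the score and to −0.34 with the library set.

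The raised gene with the smallest p was Vat1 (mm39 chromosome 11, 101349571 to 101357056), a membrane protein first purified from synaptic vesicles. It measured 34.1, 38.8, 39.9, 45.2 and 37.6 CPM in vestitol mice and 74.1, 84.1, 68.0, 98.2 and 93.5 CPM in combination mice. All 5 combination values lay above all 5 vestitol values, and the log2 fold change was 1.10 ± 0.12 (SE, adjusted p = 8.71e-06). Model control mice averaged 42.3 ± 5.39 CPM and salviolone mice 38.5 ± 1.84 CPM (SD, n = 5 each), so the vestitol group stood at the level of the other transgenic groups and the combination stood apart. In wild type, Vat1 measured 58.6, 44.4, 72.0, 75.6 and 66.5 CPM, with the lowest value in mouse 2, the wild-type mouse with the lowest hypothalamus score. With that score as a covariate the change was 0.42 (adjusted p = 0.179), and with the library set as a term it was 1.16 (adjusted p = 0.00115).

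Cd200 (mm39 chromosome 16, 45202498 to 45229416) encodes a neuronal surface glycoprotein that holds microglia in check through their Cd200 receptor. Its level was 64.9, 57.1, 58.7, 68.5 and 62.3 CPM in vestitol mice and 100.1, 102, 94.5, 107 and 101 CPM in combination mice, without overlap. The difference was 0.70 ± 0.08 on the log2 scale (adjusted p = 1.36e-05), with 71.1 CPM in model control, 67.6 CPM in salviolone and 93.4 CPM in wild type on average. It was 0.40 with the hypothalamus score (adjusted p = 0.257) and 0.80 with the library set. Of the 24 genes in the list of signals from neurons to microglia, Cd200 and the cytokine Il34 (0.26 ± 0.08) rose and Csf1 (−0.30 ± 0.10), a growth factor of microglia, fell. These were 8.33% raised and 4.17% lowered, against 11.3% and 10.6% of all genes. Of the 3, Cd200 kept its call whichever mouse was left out: Il34 lost its call without vestitol mouse 3 or combination mouse 1 or 2, and so did Csf1. Adding the library set gave 1 of the 24 raised and 1 lowered.

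Ache encodes acetylcholinesterase, the enzyme that breaks down acetylcholine at cholinergic synapses. It measured 34.0, 41.3, 44.6, 42.7 and 43.3 CPM in vestitol mice and 73.8, 58.9, 62.7, 90.1 and 84.3 CPM in combination mice, with combination mice 4 and 5 highest and no overlap. The difference was 0.85 ± 0.10 on the log2 scale (adjusted p = 1.81e-05), 0.54 with the hypothalamus score (adjusted p = 0.262) and 0.90 with the library set (adjusted p = 0.0016). Chat, which makes acetylcholine, measured 6.16, 5.55, 4.54, 10.2 and 5.42 CPM in vestitol and 18.9, 12.6, 12.3, 21.4 and 19.0 CPM in combination mice, and it marks cholinergic neurons, most of whose cell bodies lie in the basal forebrain and striatum. Of 17 genes of the cholinergic system 6 rose (Ache, Chat, Slc18a3, Chrm5, Slc5a7 and Chrna7) and 3 fell (Chrm3, Lynx1 and Chrna5), counts that were 4 and 1 with the library set. Slc18a3 loads acetylcholine into vesicles and Slc5a7 takes up choline, so the raised genes include the enzymes and transporters that define a cholinergic neuron. Chrm3, a muscarinic receptor, fell (−0.64 ± 0.14), and its change with the hypothalamus score was −0.0033.

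**Figure D3:**
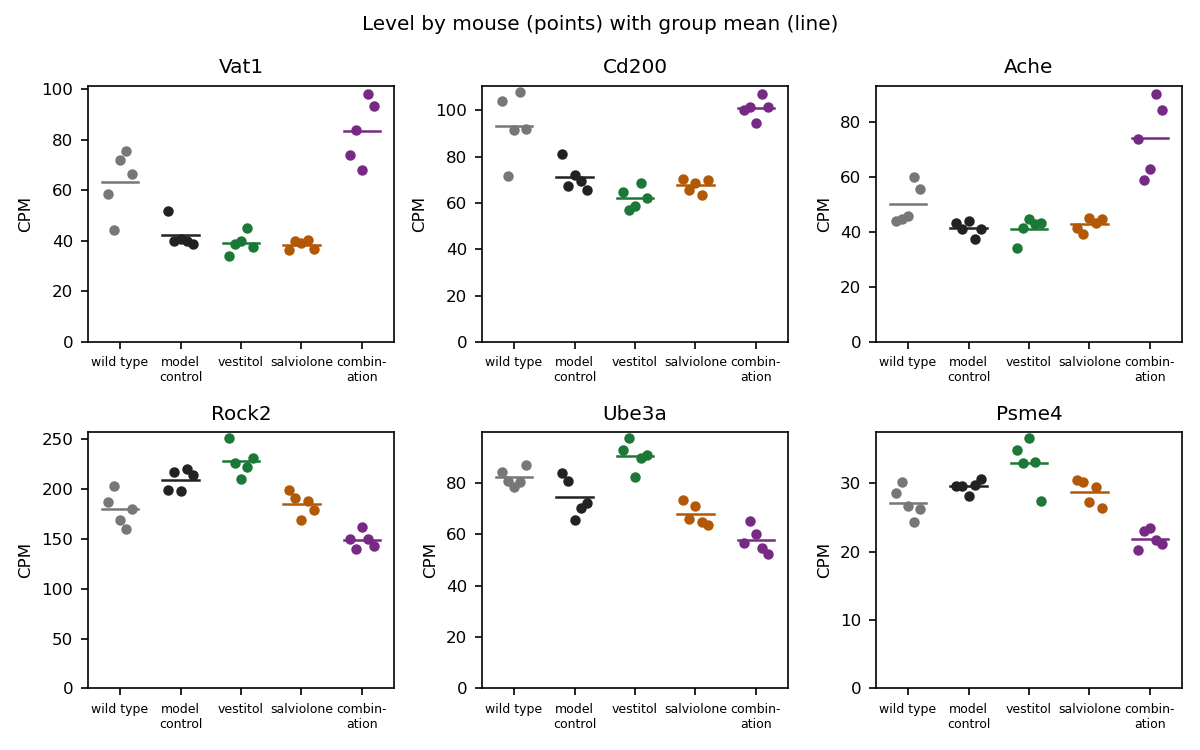
CPM (vertical axes, from 0) of Vat1, Cd200, Ache, Rock2, Ube3a and Psme4 in each mouse of the 5 groups, with the group mean as a line. The combination mice lie above all vestitol mice for the first 3 genes and below them for the last 3. Several wild-type values of Vat1 and Cd200 reach the combination range.

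The other raised genes with the smallest p formed no single family. Tmem130, a transmembrane protein of neurons, went from 177 ± 7.52 CPM to 388 ± 50.2 CPM (SD, n = 5 each), 1.13 ± 0.13 on the log2 scale. Gpc3, a heparan sulfate proteoglycan, measured 1.36, 2.04, 2.97, 2.77 and 1.66 CPM in vestitol and 7.69, 8.07, 5.84, 7.76 and 8.49 CPM in combination mice, 1.81 ± 0.23. Tac2, the neurokinin B precursor, rose by 1.66 ± 0.21, and Cdk18, a PCTAIRE kinase, by 0.95 ± 0.12. Susd2, a sushi-domain membrane protein, rose by 0.96 ± 0.11, and Maged1, a MAGE-family protein that binds the p75 neurotrophin receptor, by 0.41 ± 0.05. Dpp6, an auxiliary subunit of Kv4 potassium channels (0.48 ± 0.06), Nipal3, a putative magnesium transporter (0.38 ± 0.05), and Rpn2, a subunit of oligosaccharyltransferase (0.36 ± 0.05), changed less in fold. In all of the 12 raised genes with the smallest p the groups were apart, their adjusted p lay between 8.71e-06 and 2.5e-05, and none of the 12 passed with the hypothalamus score, where the estimates were 0.20 to 0.91. All 12 passed with the library set as a term.

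The gene with the smallest p of all was Rock2 (mm39 chromosome 12, 16944896 to 17037824), a kinase that drives actomyosin contraction and shapes dendritic spines. It measured 251, 227, 211, 223 and 232 CPM in vestitol mice and 149.5, 140.2, 162, 150.2 and 143 CPM in combination mice. The groups were apart, and the log2 fold change was −0.62 ± 0.06 (SE, adjusted p = 3.32e-06). Model control averaged 209.6, salviolone 185 and wild type 180.1 CPM, so vestitol had the highest mean and combination the lowest. Relative to model control, which both differences share, the combination was at −0.49 and vestitol at 0.13 on the log2 scale. The change was −0.42 with the hypothalamus score (adjusted p = 0.0823) and −0.61 with the library set (adjusted p = 0.000908).

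Among 34 genes of Rock kinase and actin signalling 8 fell and 3 rose, with a median of −0.02 (−0.04 to 0.03 as each mouse was left out). Those that fell were Rock2, its paralog Rock1, Arhgap5, Ppp1cb, Kalrn, Pak1, Ppp1r12a and Arhgef2. Ppp1cb and Ppp1r12a encode the catalytic and targeting subunits of myosin phosphatase, a Rock2 substrate, and Arhgap5, a GTPase-activating protein that turns the pathway off, fell (−0.88 ± 0.14). Limk2, a kinase that Rock2 phosphorylates, Arhgef7 and Diaph1 rose, a count that was 1 without vestitol mouse 2 or 4 or combination mouse 1, 2 or 3. Members that turn this signalling on and members that turn it off were both among the lowered ones. Adding the library set gave 4 lowered and 1 raised.

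Ube3a (mm39 chromosome 7, 58878498 to 58961284) is an E3 ubiquitin ligase whose loss from the maternal chromosome causes Angelman syndrome. Its level was 93.0, 97.4, 82.4, 89.7 and 90.8 CPM in vestitol mice and 56.5, 65.0, 60.1, 54.5 and 52.5 CPM in combination mice, without overlap, a difference of −0.65 ± 0.07 on the log2 scale (adjusted p = 3.58e-06). It averaged 74.6 CPM in model control, 67.7 CPM in salviolone and 82.2 CPM in wild-type mice. The Ube3a estimate did not shrink with the hypothalamus score (−0.71, adjusted p = 0.0121), and it was −0.53 with the library set (adjusted p = 0.00188). Within model control its level was 84.0, 81.0 and 65.5 CPM in the 3 libraries with intestinal transcripts and 70.3 and 72.3 CPM in the 2 without. An antisense transcript runs over Ube3a in neurons, and no source used here says whether the counting used strand, so reads of the pair cannot be told apart.

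Other lowered genes of protein turnover were Psme4, which encodes the proteasome activator PA200, and Ube2g1, a ubiquitin-conjugating enzyme. Psme4 (mm39 chromosome 11, 30721726 to 30830361) measured 34.9, 33.0, 36.6, 33.1 and 27.5 CPM in vestitol and 20.2, 22.96, 23.4, 21.8 and 21.1 CPM in combination mice, −0.59 ± 0.07 (adjusted p = 1.81e-05), with −0.48 under the hypothalamus score (adjusted p = 0.159). Ube2g1 fell (−0.71 ± 0.09) and was −0.71 with the score (adjusted p = 0.0818). Of 40 proteasome genes 4 rose (10%) and 2 fell (5%), against 11.3% and 10.6% of all genes, around a median of 0.02, with Psme1, an activator subunit, at 0.62 ± 0.11 and the catalytic subunit Psmb6 at 0.22 ± 0.06. The raised count was 2 without combination mouse 4 and the lowered count 1 without vestitol mouse 1. Of 32 E3 ligases 2 rose (6.25%) and 4 fell (12.5%), a lowered count that ran from 2 without vestitol mouse 1 or 2 or combination mouse 1, 4 or 5 to 7 without combination mouse 3. The raised count was 1 without vestitol mouse 3 or combination mouse 2. Adding the library set gave 1 proteasome gene raised and 1 lowered, and 1 E3 ligase lowered.

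Deubiquitinases moved in both directions. Of 30, 11 fell, among them Usp7, Usp9x, Usp14 and Usp34, and 3 rose, with a median of −0.10 and 7 lowered without vestitol mouse 1. With the library set 3 were raised and 2 lowered, while the median stayed negative at −0.06. None passed with the hypothalamus score. Uchl1, an abundant neuronal ubiquitin hydrolase, went from 345 ± 32.1 to 475 ± 14.7 CPM (SD, n = 5 each), 0.46 ± 0.07, and Usp11 rose by 0.62 ± 0.08 and Usp22 by 0.27 ± 0.05. In autophagy and lysosome, 3 of 45 rose (6.67%) and 7 fell (15.6%), together 22.2% against 21.9% of all genes. The median of the list was −0.01 (−0.03 to 0.01 as each mouse was left out), and both counts changed with single mice. The raised count was 5 without vestitol mouse 1 and 1 without combination mouse 4, and the lowered count was 4 without vestitol mouse 3, vestitol mouse 5 or combination mouse 2 and 3 without combination mouse 1. In the fit with the library set, 5.33% of all genes were raised and 4.42% lowered, and 2 of these 45 rose and none fell. With the hypothalamus score none of the 45 passed. Gaa, the lysosomal glucosidase, had the smallest p of these and rose by 0.76 ± 0.10.

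Promoter sequences of the lowered and the raised gene with the smallest p are shown because the promoters of lowered genes were somewhat richer in GC: the median was 62.3% for 1341 lowered genes, 60.7% for 1448 raised ones and 60.0% for 12886 tested genes with an entry. The windows run from 250 bases before to 50 after the transcript start, 5′ to 3′, from RefSeq on build GRCm38.p6, which differs from the build of the gene coordinates given elsewhere. Rock2 lies on the plus strand at chr12:16894728-16895027 and Vat1 on the minus strand at chr11:101466150-101466449. Capitals mark CpG dinucleotides.
Rock2: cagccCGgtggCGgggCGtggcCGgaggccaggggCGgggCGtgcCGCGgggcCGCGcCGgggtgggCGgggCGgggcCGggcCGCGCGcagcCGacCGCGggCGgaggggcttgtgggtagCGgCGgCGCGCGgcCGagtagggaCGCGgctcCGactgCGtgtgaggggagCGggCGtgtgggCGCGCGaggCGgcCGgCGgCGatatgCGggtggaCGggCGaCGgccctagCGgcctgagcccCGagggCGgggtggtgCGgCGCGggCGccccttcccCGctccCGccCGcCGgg
Vat1: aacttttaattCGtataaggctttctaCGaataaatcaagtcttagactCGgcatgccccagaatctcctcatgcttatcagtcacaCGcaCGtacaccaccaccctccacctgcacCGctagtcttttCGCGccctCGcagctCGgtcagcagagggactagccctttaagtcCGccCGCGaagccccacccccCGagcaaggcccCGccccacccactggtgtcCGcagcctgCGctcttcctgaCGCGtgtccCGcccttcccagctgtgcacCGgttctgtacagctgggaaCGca
The Rock2 window had 84.7% GC and 55 CpG dinucleotides, and the Vat1 window had 59.3% and 22. Rock2 lies far above the median of lowered genes, so this pair does not stand for the small difference between the sets. Among the other marker genes, GC was 69.0% in Ube3a and 65.3% in Psme4, both lowered, and 45.0% in Cd200, which was raised. Searched on both strands, the cyclic AMP response element TGACGTCA was in 2.62% of raised, 3.5% of lowered and 2.88% of all promoters. The E-box CACGTG was in 8.91%, 9.84% and 9.45%, and the palindromic NRF1 motif in 1.45%, 1.19% and 1.76%, in the same order. No match to any of the 3 was in the windows of Rock2, Ube3a, Psme4, Vat1 or Cd200.

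Genes of GABA signalling split: of 29, 10 rose and 7 fell around a median of 0.04. Gad2, which makes GABA, went from 207 ± 31.0 to 348 ± 46.0 CPM (SD, n = 5 each), 0.75 ± 0.10 on the log2 scale, and Gad1, Slc32a1, Sst, Reln, Adarb2, Gabrg1, Gabbr1 and Calb2 were among the others that rose. Vip, Cck, Npy and Pvalb, markers of cortical interneuron classes, fell along with the receptor subunits Gabrd and Gabrg3. So the genes that inhibitory neurons of all regions use to make GABA and load it into vesicles (Gad1, Gad2 and Slc32a1) were raised, while markers of cortical classes were found on both sides, Sst and Reln among the raised ones. The library set as a term gave 6 raised and 3 lowered, and the hypothalamus score none.

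Of 37 glutamatergic synapse genes 11 were lowered and 4 raised, with a median of −0.06. These counts were 4 and 3 with the library set, around a median of −0.0073, and with the hypothalamus score none passed and the median was −0.0002. Grin2a, an NMDA receptor subunit, fell from 397 ± 15.4 to 250.2 ± 29.0 CPM (SD, n = 5 each), −0.67 ± 0.10, and the scaffold genes Shank1 (−0.38 ± 0.07) and Dlgap1 (−0.35 ± 0.07) fell with it. Gria2, Gria3, Grin1, Camk2a and Homer1 were also lowered, while Lrrtm1, Cacng8 and Nlgn3 were among those that rose. In the release machinery 11 of 40 fell and 8 rose, while with the library set 2 fell and 5 rose, and with the hypothalamus score none passed. Snap25, a core SNARE protein, measured 1843, 1866, 1839, 1697 and 1735 CPM in vestitol and 1103, 1255, 1270, 1086 and 1155 CPM in combination mice, −0.61 ± 0.09 (adjusted p = 8.05e-05). Vat1l, a paralog of Vat1, rose by 1.63 ± 0.22. Left out singly, vestitol mouse 1 or 2 or combination mouse 4 took the lowered count of the release list to 5, vestitol mouse 5 took it to 6, and vestitol mouse 3 or combination mouse 5 took it to 7.

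Voltage-gated potassium and sodium channels had 13 of 27 lowered, 2 raised and a median of −0.36. Kcna1, an axonal potassium channel, fell (−0.71 ± 0.12), and so did Kcnma1, the BK calcium-activated channel (−0.40 ± 0.06). Scn1a, Kcnc1 and Kcna2 were among the others that fell. Kcnd3 and Kcna4 rose, a count that was 1 without vestitol mouse 2, 3 or 5 or combination mouse 1, 2, 4 or 5. The median was −0.39 with the library set as a term, where 9 were lowered, and −0.01 with the hypothalamus score, where none was. Calcium channels and stores gave 14 lowered and 5 raised of 34 and a median of −0.12 (9 and 4 with the library set), with the presynaptic channel Cacna1a at −0.42 ± 0.08, the calcineurin subunit Ppp3r1 at −0.54 ± 0.09 and the ryanodine receptor Ryr3 at 0.65 ± 0.11.

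In PI3K, AKT and mTOR signalling 13 of 31 genes fell and none rose, with a median of −0.12. Igf1r, the receptor of insulin-like growth factor, measured 257, 235, 220.2, 229 and 266 CPM in vestitol and 199, 188, 203, 175 and 184 CPM in combination mice, −0.35 ± 0.06 on the log2 scale (adjusted p = 0.000138), and Pik3r1, the regulatory subunit of PI3K, fell too (−0.35 ± 0.06). Pik3ca, Pik3r2, Irs1, Akt2, Rps6kb1, Rptor, Rictor, Deptor, Foxo3 and Prkaa2 were lowered as well. Positive members (Igf1r, Irs1, Pik3ca, Akt2) and the negative regulator Deptor were lowered alike. Without vestitol mouse 1 the lowered count was 8 and 1 member was raised. Adding the library set gave 9 lowered, and adding the hypothalamus score left none, with a median of −0.03.

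MAP kinase genes fell in 11 and rose in 4 of 33 cases, with a median of −0.08 and 7 lowered without vestitol mouse 1. The counts were 3 and 2 with the library set (median −0.17), and with the hypothalamus score none passed and the median turned to 0.07. Mapk3, encoding ERK1, went from 113 ± 4.25 to 185 ± 7.46 CPM (SD, n = 5 each), 0.72 ± 0.11, and its activating kinase Map2k1 rose by 0.36 ± 0.07. Spred1, an inhibitor of the pathway, fell (−0.39 ± 0.06), and Braf, Nras, Mapk8 and Mapk10 fell as well. Wild-type mice were near the combination in Mapk3 (191 ± 41.2 CPM), and wild-type mouse 2 was again the low one, at 120.4 CPM.

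Activity-dependent genes gave calls that changed in number with single mice. Of 30 immediate-early genes 9 fell, among them Egr1, Egr3, Npas4, Nr4a1 and Arc, and 2 rose, with a median of −0.30. Egr3 measured 261, 164, 177, 170 and 230.2 CPM in vestitol and 127, 125, 136, 146 and 152 CPM in combination mice, −0.55 ± 0.14 (adjusted p = 0.00866), with vestitol mouse 1 highest. Without vestitol mouse 1 the lowered count was 4 and the median −0.10, and the count was 5 without combination mouse 1 and 4 without combination mouse 3. Jun, a stress-responsive transcription factor, rose by 0.73 ± 0.14. Adding the library set gave 4 lowered and 1 raised, with a median of −0.41. Under the hypothalamus score the median was 0.12 and no member passed.

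The called hormone and clock genes were all lowered. Of 20 genes that glucocorticoids regulate 6 fell and none rose, with a median of −0.36 and 6 positive estimates among the 20. Klf9 measured 269.7, 259.7, 257, 264 and 287 CPM in vestitol and 174, 185, 199, 177 and 189.7 CPM in combination mice, −0.53 ± 0.09 (adjusted p = 0.00021). Nr3c1, the glucocorticoid receptor, fell (−0.42 ± 0.07) and Tsc22d3, which the hormone induces, (−0.69 ± 0.13). One member was raised without vestitol mouse 5. In the circadian list 8 of 20 fell, none rose and the median was −0.29, with 4 positive estimates. Hlf, an output transcription factor, went from 388 ± 15.2 to 216 ± 23.6 CPM (SD, n = 5 each), −0.84 ± 0.13, and the clock repressors Nr1d2 (−0.59 ± 0.11) and Nr1d1 fell, as did Usp2 (−0.33 ± 0.07) and Per3. Between 4 and 5 were lowered without vestitol mouse 1, 2 or 3 or combination mouse 1, 4 or 5, the lowest count being that without combination mouse 4. No time of day of collection is stated, and its part was not tested. There were 3 hormone-regulated and 5 clock genes lowered with the library set. The medians with the hypothalamus score were −0.09 for the hormone list and 0.10 for the clock list, with none called in either.

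Genes encoded on the mitochondrial chromosome moved as a block: 12 of 13 fell, none rose, and the median was −0.67. Their products are core subunits of the respiratory chain and of ATP synthase. mt-Co3, a subunit of cytochrome oxidase, measured 176, 211, 182, 164 and 176 CPM in vestitol and 97.5, 80.2, 98.4, 93.6 and 98.2 CPM in combination mice, −0.96 ± 0.12 (adjusted p = 1.82e-05), and mt-Atp6 (−0.84 ± 0.11) and mt-Co2 (−0.69 ± 0.10) fell with it. All combination values were below all vestitol values in these 3 genes. The mitochondrial share of all counts was 0.475% to 0.605% in combination and 0.755% to 0.829% in vestitol libraries. With the hypothalamus score the median was −0.94 with 8 members lowered. It was 1 of 25 lists out of 53 whose median was farther from 0 in that fit. The median shrank with the library set, to −0.34 with 2 lowered, and the levels followed the sets inside other groups: mt-Co3 was 163, 135 and 123 CPM in model control mice 1 to 3 and 104 and 106 in mice 4 and 5, and it was 117 CPM in salviolone mouse 1 and 79.9 to 106 CPM in mice 2 to 5. Reads of these genes can also come from nuclear copies of mitochondrial DNA, and no source used here says how such reads were counted.

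The list of nuclear genes of oxidative phosphorylation did not fall with them. Of 54, 15 rose and 1 fell, with a median of 0.09. Atp5l, a subunit of ATP synthase, went from 95.3 ± 2.12 to 116 ± 3.95 CPM (SD, n = 5 each), 0.28 ± 0.04 (adjusted p = 3.67e-05), and Sdhb (0.21 ± 0.04) and Atp5o (0.37 ± 0.08) rose by similar amounts. The raised count was 7 to 9 without vestitol mouse 1 or 5 or combination mouse 2, 4 or 5, lowest without combination mouse 4, and 2 fell without vestitol mouse 5. Cytosolic ribosomal protein genes rose in 26 of 61 cases and fell in none, with a median of 0.13 and 17 raised without vestitol mouse 1 or combination mouse 1 or 4. Rpl14 (0.26 ± 0.04), Rps19 (0.30 ± 0.06) and Rps25 (0.21 ± 0.04) had the smallest p. Many of these genes have processed copies elsewhere in the genome that could take up or lend reads, so single values are uncertain. In the fit with the library set 5 of each list were raised, with medians of 0.09 and 0.13. With the hypothalamus score 1 nuclear gene (Atp5l) and no ribosomal protein gene passed, with medians of 0.11 and 0.07.

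Of 28 genes that microglia raise around plaques 3 fell (10.7%, against 10.6% of all genes) and none rose, with a median of −0.19. Those lowered were the cathepsins Ctsz (−0.34 ± 0.10) and Ctsb (−0.18 ± 0.06) and the growth factor Csf1. Only 1 of them was lowered without vestitol mouse 3, vestitol mouse 5 or combination mouse 1. The score of the list was 3.63 to 4.49 in combination and 4.19 to 4.63 in vestitol mice, which overlap, and 2.90 to 3.30 in wild type. One was lowered with the library set (median −0.37), and with the hypothalamus score none passed (median −0.27). Among 32 genes of amyloid processing and clearance 3 rose (9.38%) and 4 fell (12.5%), shares near the 11.3% and 10.6% of all genes, and with the library set 1 was raised and 5 lowered. Ece2, an endothelin-converting enzyme that cleaves amyloid beta, rose by 1.01 ± 0.20, Adam9, a protease of the alpha-secretase family, fell (−0.30 ± 0.06), and Sorl1, a sorting receptor of the amyloid precursor, fell (−0.45 ± 0.10). Their values with the hypothalamus score were 0.02, −0.16 and −0.06. Tau and its kinases gave 5 lowered and 2 raised of 26, together 26.9% against 21.9% of all genes. Csnk1a1 (−0.22 ± 0.04), Csnk1e (−0.24 ± 0.06) and Camk2a (−0.26 ± 0.07) were lowered. The raised count fell to 1 or 0 without vestitol mouse 3 or 4 or combination mouse 1, 2 or 3, being 0 without combination mouse 2. In the fit with the library set 2 tau genes were lowered and none raised.

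Interferon-responsive genes had 3 of 22 lowered (13.6%, against 10.6% of all genes) and a median of −0.46, with Gbp3, an interferon-induced GTPase, at −0.79 ± 0.20 and Ifit2 at −0.40 ± 0.11, and 5 lowered without vestitol mouse 1 or combination mouse 3. The library set gave 5 lowered and a median of −0.84, and with the hypothalamus score none was and the median was −0.64. In the complement list C1ra (−1.76 ± 0.33) and C1s1 (−1.31 ± 0.31), the proteases of the first component, fell, and Serping1, their inhibitor, rose by 0.92 ± 0.26. Cfb and C2 rose too, so 3 of 17 rose and 2 fell, together 29.4% against 21.9% of all genes, while with the library set none rose and 2 fell. One rose without vestitol mouse 4 or combination mouse 1, 2 or 4, and 4 fell without vestitol mouse 1. Serping1 was 0.05 with the library set as a term. None of 21 inflammatory cytokines and NF-kB targets passed, with a median of −0.17, and none passed in either of the other fits.

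Glial lists differed in sign. Astrocyte markers had a median of 0.11, with 3 of 16 raised (6 without vestitol mouse 5) and 1 lowered. Together these calls were 25% of the list, against 21.9% of all genes. Slc1a2, the main glutamate transporter, was at −0.34 ± 0.06, Gja1, a gap junction protein, at 0.22 ± 0.05 and the water channel Aqp4 at 0.34 ± 0.09. Aqp4 was −0.08 with the hypothalamus score. Of 12 oligodendrocyte precursor genes 4 rose and the median was 0.14, with C1ql1 at 1.23 ± 0.17, Gpr17 at 0.68 ± 0.12 and Lhfpl3 at 0.84 ± 0.20. Myelin genes had a median of −0.32 with all 16 estimates negative, and Mag, a myelin glycoprotein, was the 1 that passed (−0.40 ± 0.13). It lost its call without vestitol mouse 2, 3 or 4 or combination mouse 1, 2 or 4, and without vestitol mouse 1 the list had 2 lowered. The myelin median was −0.23 with the library set and −0.44 with the hypothalamus score, with none called in either. The astrocyte and precursor medians were 0.19 and 0.22 with the set, with the same counts of calls, and turned to −0.05 and −0.18 with the score, with none called.

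RNA-binding and cytoskeletal genes also appeared among the calls. Of 44 splicing and RNA-binding genes 11 fell and 3 rose, with a median of −0.08, and with the library set 4 fell and 2 rose. Fmr1, the fragile X protein that represses translation at synapses, went from 43.5 ± 1.90 to 33.1 ± 1.18 CPM (SD, n = 5 each), −0.40 ± 0.05 (adjusted p = 2.5e-05), Sf3b1, a splicing factor, fell (−0.25 ± 0.04) and Celf4 rose by 0.44 ± 0.07. Of 39 microtubule and transport genes 9 rose and 5 fell (2 and 2 with the library set). Those that rose included tubulins, Tubb2a by 0.67 ± 0.09 with Tubb3, Tubb5 and Tuba1a, and the kinesin gene Kif3a, and those that fell were neurofilament and other kinesin genes, Nefl (−0.30 ± 0.05) and Kif5c (−0.29 ± 0.05) with Nefm, Kif5a and Kif5b. Remaining lowered genes with small p were Nfix, a nuclear factor I transcription factor (329.9, 359, 358, 337 and 390.4 CPM in vestitol and 146, 182, 196, 148 and 164 CPM in combination mice, −1.08 ± 0.13), Fut9, which makes the Lewis x carbohydrate (−0.98 ± 0.12), Rgs6, a regulator of G protein signalling (−0.73 ± 0.09), Ankrd12 (−0.43 ± 0.05) and the chromatin reader Phf20l1 (−0.38 ± 0.05). Nfix and Fut9 were −0.53 and −0.74 with the hypothalamus score, neither of them called.

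The 13 genes that passed with the hypothalamus score as a covariate were mostly mitochondrial. Of the 11 lowered ones 8 were mt-Co3, mt-Nd3, mt-Nd5, mt-Nd1, mt-Cytb, mt-Co2, mt-Atp6 and mt-Nd2, at −0.85 to −1.21 on the log2 scale, and the others were Ube3a, Far1 and AW549877. Far1, which makes fatty alcohols for ether lipids, measured 66.9, 62.6, 60.1, 66.5 and 61.3 CPM in vestitol and 44.0, 48.5, 44.3, 49.5 and 46.1 CPM in combination mice. Its change was −0.45 with no added term, −0.62 with the score (adjusted p = 0.0344) and −0.21 with the library set. Of the 2 raised genes, Atp5l was at 0.33 with the score, and Pla2g1b, a pancreatic phospholipase, was detected in 1 combination library and in no vestitol library, so it has no usable fold. These 13 were named after their values were seen.

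**Figure D4:**
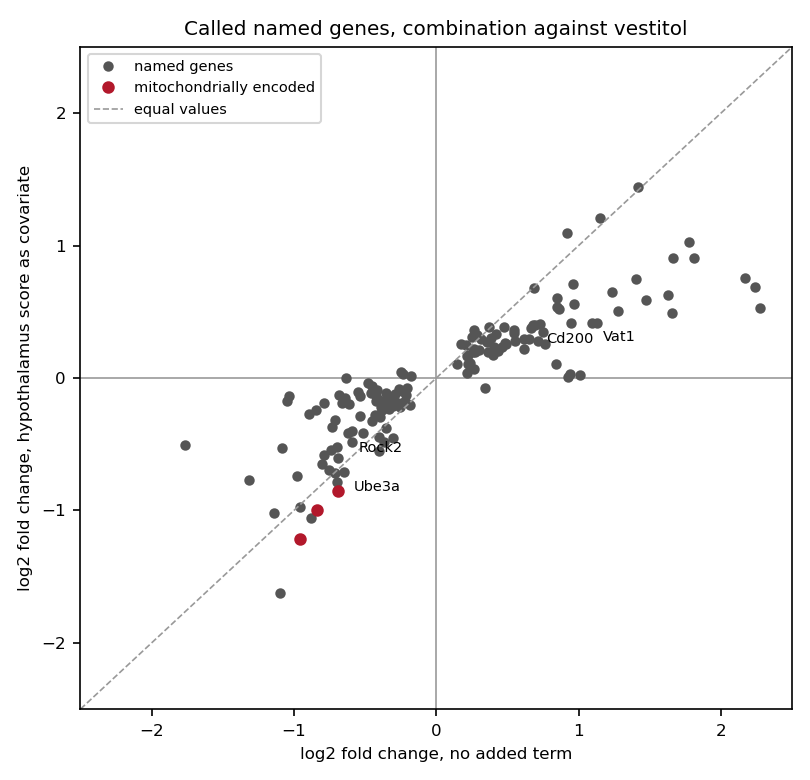
Log2 fold change, combination against vestitol, of the 150 called genes that the naming rule picked within 2.5 on both axes, with no added term (horizontal) and with the hypothalamus score as a covariate (vertical). Most points lie nearer to 0 on the vertical than on the horizontal axis, among them Vat1, Cd200 and Rock2, while Ube3a and the 3 mitochondrially encoded genes drawn in red lie at or beyond the line of equal values.

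The largest fitted decreases belonged to the intestinal genes that define the library sets. Lypd8, an antibacterial protein of the colon, measured 2.58, 2.98, 3.10, 4.16 and 3.68 CPM in vestitol mice and 0.0503, 0, 0, 0 and 0 CPM in combination mice, Dmbt1, a mucosal scavenger protein, 5.82, 2.00, 2.96, 2.94 and 10.2 and 0.0503, 0.0701, 0, 0.0391 and 0.0761 CPM, and Muc3, a membrane mucin, 2.85, 2.33, 4.43, 8.02 and 3.60 and 0.0377, 0.112, 0.172, 0.117 and 0 CPM. Each vestitol library held all 3 and each combination library was at 0.172 CPM or less. The same genes were at 6.00, 10.5 and 3.49 CPM in model control mouse 1 and at 0.0514, 0 and 0 CPM in model control mouse 4, both of which received vehicle. With the library set as a term, which these genes define, none was called, so their fold changes are given here only as a description of the libraries.

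Neither the comparison of the combination with model control nor that of vestitol with model control is independent of this one, since they share its mice. In the first, 2471 genes passed (15% of those tested), and in the second none passed in edgeR's quasi-likelihood test, with 1249 at an unadjusted p under 0.05, 44 in DESeq2 and 0 in limma-voom. For Vat1 the combination stood at 0.98 and vestitol at −0.11 relative to model control, and for Cd200 at 0.50 and −0.19. Ube3a stood at −0.37 and 0.28, and mt-Co3 at −0.43 and 0.53. The vestitol estimate thus had the opposite sign from that of the combination in each of these 4 genes, and none of the vestitol estimates passed. By transcript length, the median log2 fold change was 0.02 in the shortest and −0.00012 in the longest of 5 equal bins of genes. The share of genes lowered went from 8.87% in the shortest bin to 11.5% in the longest, and the share raised was 12.7% in the shortest and 10% to 11.7% in the others. Spearman's rho across 16515 genes, which are not independent replicates, was −0.02.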

How the data were processed

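RNA of mouse brain cortex was sequenced in 25 libraries, 5 mice in each of 5 groups, and the labels give the group and number of each mouse. Reads were trimmed with Trim Galore and aligned to mm39 with STAR, per the submitters' processing notes, while no source used here gives their versions or the counting tool. The labels name the TruSeq RNA kit V2 as well as the SMARTER mRNA-Seq kit. Raw counts were deposited by the authors for each gene and were used for all results. The authors also deposited FPKM values, used for an alternative and to derive transcript lengths (from the same gene they varied between samples by a median of 0.178%). Of deposited counts between 4 and 39, 44.33% were multiples of 4 against 25% by chance, so counts divided by 4 were tried as well. Gene positions are those of the deposited table.

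The test was edgeR 4.0.16's robust quasi-likelihood F-test in R 4.3.3, with TMM factors of 0.980 to 1.04, the filterByExpr filter (minimum count 10), all 25 samples in 1 fit and Benjamini-Hochberg adjustment over 16515 genes at 0.05. SE values of log2 fold changes come from that fit. The scripts were tested on simulated data. Depth sets the precision, and the floor of 3 counts covers counting error only. The text names per direction, the 12 called genes of smallest adjusted p whose mean log2 CPM was 1 or more (passing over predicted genes and pseudogenes), the 3 largest changes per direction, 5 preset marker genes, App, Prnp, and up to 3 called members of each of 53 gene lists by smallest p. Other members are named without values, and some genes that the rule picked are not reported here. The members, lists and tests were chosen with earlier results of these data known. A list is described by its counts and median only. The library sets, and the 24 intestinal genes behind them, were noticed in the data. Alternatives were other normalizations, filters, tools (limma 3.58.1, DESeq2 1.42.0), FPKM with pseudocounts of 0.1 and 1, a replicate block, left-out mice, and scores or library set as terms.

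The main fit did not pair the mice by the numbers n1 to n5. The correlation of same-numbered deviations was small, −0.00582 to 0.091, although numbers 1, 4 and 5 correlated best with themselves. No 2 libraries were identical. Promoters came from RefSeq on GRCm38.p6 (12886 of 16515 genes matched, 1 window each).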

Additional observations from a re-analysis of the deposited data

Results flagged for a closer look

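In 168 checks of the 10 mice, 13 values stood apart from the other 4 of their group by the gap-to-range criterion, which flags about 1 in 20 groups by chance. Vestitol mouse 5 accounted for 4 of them: its score was 3.115 for reactive astrocytes (the others reached 2.50), 5.181 for endothelium (4.82), 8.658 for microtubule motors and axonal transport (8.62), and its Ube2g1 was 21.31 CPM, below the 25.5 CPM of the next lowest. Vestitol mouse 2 was high in Avp at 0.919 CPM (the others were at 0.230 or less) and in the thalamus score at 3.615 (2.64), and low in the NRF2 antioxidant response score at 5.841 (5.91).

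Vestitol mouse 1 was high in Fut9 at 89.61 CPM against 71.5 in the next mouse, and vestitol mouse 3 in Susd2 at 16.31 CPM against 12.5 CPM. Combination mouse 2 had the lowest mt-Co3, 80.2 CPM against 93.6, and the lowest mitochondrially encoded score, 7.413 against 7.671. Combination mouse 3 had the highest Rgs6, 71.41 CPM against 56.9. Combination mouse 1 was the only combination library with a count of Lypd8, at 0.05033 CPM. In Susd2, Fut9, Ube2g1, mt-Co3 and Rgs6 the outlying mouse did not close the gap between the groups.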

How the results depend on the processing

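Against 1860 raised and 1749 lowered genes, and 2471 called between combination and model control, the counts were 1029, 811 and 914 without the 3 deepest combination libraries (mice 3, 4 and 5), 562, 387 and 493 with a 1.2-fold minimum, 1080, 948 and 1159 at an adjusted p under 0.01, and 2836, 2689 and 4618 at an unadjusted p under 0.05. With the hypothalamus score they were 2, 11 and 0, with 4 scores (striatum, thalamus and choroid plexus added) 0, 0 and 0. The next alternatives were chosen after seeing the data: the library set gave 880, 730 and 1642, and the library set with the score, or the 20 transgenic mice with the score, gave 0, 0 and 0 (931 and 1759 genes at an unadjusted p under 0.05 between combination and vestitol). For vestitol against model control, 0 genes passed in edgeR, 44 in DESeq2 and 1249 at an unadjusted p under 0.05. Other scalings, filters and tools, FPKM included, stayed within 1.5 times these counts. Leaving out 1 mouse at a time gave 1456 to 1721 raised and 1401 to 1708 lowered genes, 1812 to 2588 for combination against model control and 0 to 2 for vestitol against model control.

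As a replicate block, the mouse numbers gave 1833 raised and 1752 lowered genes, and mice 1, 4 and 5 of 5 correlated best with their own number. Among 161 named genes the block ended the calls of Abcc9, Ccdc153 and Cfap43.

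Some log2 fold changes turned direction. With the hypothalamus score Hcrt was −3.20, Pmch −1.25, Avp −1.29, Aqp4 −0.077, Ctsb 0.019, Csnk1e 0.030, Atf4 0.049, Prnp 0.052 and App 0.11. With 4 scores Hcrt was −2.56, Pmch −1.18, Avp −2.18, Sparc −0.033, Aqp4 −0.034, Camk2a 0.018, Chrm3 0.030, Atf4 0.067, Prnp 0.085 and App 0.11. In the 20 transgenic mice with the score Lhfpl3 was −0.094, Slc17a6 −0.17, Hcrt −0.92, Avp −1.92, Pmch −2.68, Csnk1e 0.0093, Camk2a 0.079, Atf4 0.12, App 0.15, Prnp 0.21 and Ier2 0.25. With the library set Muc3 was 0.91 and Dmbt1 1.64, and with set and score Pmch was −0.039, Aqp4 −0.044, Avp −3.37, Hcrt −7.44, Rb1cc1 0.0088, Muc3 1.05 and Dmbt1 1.38. The cause was not tested, except that Hcrt, Pmch and Avp belong to the score and Muc3 and Dmbt1 define the set. Of the 161 named genes, 147 kept their direction without passing under the score and 44 under the library set. Genes near the floor of 3 counts, such as Hcrt in vestitol mice, are limited by depth.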

Other observations

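Hippocampal markers held 6 raised and 3 lowered of 15, with a median log2 fold change of 0.27, and the lowered count was 1 without vestitol mouse 2, 4 or 5 or combination mouse 4 or 5. Wfs1, an endoplasmic reticulum protein, measured 83.1, 85.7, 81.0, 97.6 and 74.6 CPM in vestitol and 217, 214, 166, 229.8 and 195 CPM in combination mice, 1.28 ± 0.19 (adjusted p = 9.04e-05). Dkk3, a secreted protein of the Dickkopf family, measured 383, 344, 396, 355 and 345 CPM and 176, 191, 188, 157 and 167 CPM in the same order, −1.05 ± 0.18 (adjusted p = 0.000253), and the groups were apart for both. Adding the library set gave 5 of the list raised and 1 lowered. The 2 estimates with the hypothalamus score were 0.50 and −0.17, and no member of the list passed.

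The share of lipid and stress genes called was near the 21.9% of all genes in each of 3 lists. In cholesterol synthesis and uptake 4 of 24 rose and 1 fell, together 20.8%. The raised count was 2 without vestitol mouse 2 or 4 or combination mouse 1. Of 30 genes of the NRF2 antioxidant response 6 rose and 1 fell (2 without vestitol mouse 5), together 23.3%. Sod1, a superoxide dismutase, was at 0.27 ± 0.05 and Gpx1, a glutathione peroxidase, at 0.24 ± 0.06. In the unfolded protein response 5 of 26 fell, led by the sensor Atf6 (−0.46 ± 0.09), and 1 rose, together 23.1%. The lowered count was 2 without vestitol mouse 1 or 5 or combination mouse 3 and 3 without vestitol mouse 2 or combination mouse 1 or 4, and the raised one was 0 without vestitol mouse 1, 2 or 3 or combination mouse 1, 4 or 5. With the library set 2 cholesterol genes were raised and 1 lowered, 2 antioxidant genes were raised and 2 genes of the unfolded protein response were lowered, and with the hypothalamus score none passed in the 3 lists.

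Of 24 genes of intestinal epithelium listed after the sets were noticed, 21 had a higher median in the 14 libraries with these transcripts than in the 11 without. The 21 include Lypd8, Dmbt1 and Muc3, which define the sets, so the direction of these genes was fixed in advance. Muc2, the main colonic mucin, was 5.26 to 11.6 CPM in the 14 and 0.797 to 2.37 CPM in the 11. Clca1 was 0.254 to 9.15 CPM and at most 0.154 CPM. Zg16, a secreted lectin of goblet cells, had 271 counts over the 5 vestitol libraries and 0 over the 5 combination libraries. These values describe the libraries, and where the transcripts came from was not tested.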
